A study of Rattus norvegicus with 6 samples.

Results

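The genes described here encode 6 families of developmental transcription factors: the forkhead (Fox), Sox, T-box, Zic, Krüppel-like (Klf) and Gata factors. From the annotated differentially methylated regions (DMRs), those were taken whose gene symbol was Fox with a letter and a number, Sox, Tbx, Zic, Klf or Gata with a number, or Tbr1, Eomes or Tbxt, and each was counted once. Within these families the selection used only the symbol and gave 105 of 24862 annotated regions, in 54 genes. The families themselves were chosen with earlier results of these data known, so the shares below are descriptions and not independent contrasts. Eomes had no region. Methylation had been measured in brain microvascular endothelial cells (BMECs), the cells that line brain capillaries, sorted as CD45-negative and CD31-positive cells from the hippocampus of adult male Sprague-Dawley rats. The CUMS group comprised 3 samples from rats under chronic unpredictable mild stress for 8 weeks, a schedule of changing mild stressors, and the Ctrl group comprised 3 samples from rats left undisturbed. Neither group carried an allele or drug, and whether animals were pooled is not given in the sources used here. The sort could not be checked, because the methylation tables hold no expression of marker genes.

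These families share the property that one conserved DNA-binding domain (winged helix, HMG box, T-domain or zinc fingers) defines each of them, and members set cell identity in the embryo. Many of their genes lie in long CpG islands, stretches dense in CG dinucleotides that are normally unmethylated and that Polycomb complexes often hold silent in cells that do not use the gene. Several members act in vessels: Foxc1, Foxf1 and Foxf2 in the vascular wall and its pericytes, Klf2 and Klf4 in the response of endothelium to flow, and Gata2 in endothelial and blood cells.

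Each region had a single methylation level per group, the share of cytosines read as methylated, given here in percent. A region was called hypermethylated when the CUMS level was above the Ctrl level and hypomethylated when it was below. With 1 value per group there was no replicate error and no p-value. The study's methods give a range of sequencing coverage over the samples, but the tables used here give none per region. The depth behind a single level is therefore not known, and no interval was computed for any level. Every comparison below is therefore a description of the group values, and whether a difference exceeds the spread between samples was not testable. In sorted bulk cells, a different level per cell and a different mixture of cells cannot be told apart. The authors' list holds only regions that had passed their own call, so a level difference was a condition of entry.

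The sequence upstream of many of these genes is rich in CG dinucleotides, the sites measured in the CG context. RefSeq promoter sequences (assembly GRCr8) were matched by symbol for 34 of the 54 genes, among them 8 of the 15 genes with a CG region annotated to their own promoter. The 250 bases before the gene start are printed for the 6 of these 8 whose promoter region differed by at least 10 percentage points, with each CG dinucleotide in capitals. They lie at chr17:33051260-33051509, minus strand (Foxf2), chr15:105983092-105983341, plus strand (Zic2), chr5:119450282-119450531, plus strand (Foxd3), chr17:32844101-32844350, minus strand (Foxc1), chr5:133667484-133667733, minus strand (Foxd2) and chr1:54853584-54853833, minus strand (Tbxt). The regions themselves were called on mRatBN7.2, so their position within these windows is not given.
Foxf2: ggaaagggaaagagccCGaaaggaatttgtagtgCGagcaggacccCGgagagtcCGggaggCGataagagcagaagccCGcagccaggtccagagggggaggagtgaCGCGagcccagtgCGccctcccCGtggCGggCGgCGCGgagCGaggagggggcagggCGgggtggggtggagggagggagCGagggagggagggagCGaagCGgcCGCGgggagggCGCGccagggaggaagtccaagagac
Zic2: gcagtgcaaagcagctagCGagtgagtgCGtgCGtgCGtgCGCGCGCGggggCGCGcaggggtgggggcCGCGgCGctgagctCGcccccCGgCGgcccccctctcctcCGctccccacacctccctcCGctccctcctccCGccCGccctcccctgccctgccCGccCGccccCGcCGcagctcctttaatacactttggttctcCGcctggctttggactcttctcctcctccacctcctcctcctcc
Foxd3: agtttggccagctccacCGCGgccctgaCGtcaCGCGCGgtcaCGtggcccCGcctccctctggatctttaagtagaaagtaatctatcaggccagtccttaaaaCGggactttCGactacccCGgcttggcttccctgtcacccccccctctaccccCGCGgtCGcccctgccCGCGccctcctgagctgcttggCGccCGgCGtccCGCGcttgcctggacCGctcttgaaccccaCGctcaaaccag
Foxc1: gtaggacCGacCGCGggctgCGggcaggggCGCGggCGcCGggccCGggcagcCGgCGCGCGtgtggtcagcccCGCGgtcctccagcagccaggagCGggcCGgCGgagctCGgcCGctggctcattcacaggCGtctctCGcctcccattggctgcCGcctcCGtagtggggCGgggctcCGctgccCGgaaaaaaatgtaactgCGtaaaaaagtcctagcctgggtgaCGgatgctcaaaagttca
Foxd2: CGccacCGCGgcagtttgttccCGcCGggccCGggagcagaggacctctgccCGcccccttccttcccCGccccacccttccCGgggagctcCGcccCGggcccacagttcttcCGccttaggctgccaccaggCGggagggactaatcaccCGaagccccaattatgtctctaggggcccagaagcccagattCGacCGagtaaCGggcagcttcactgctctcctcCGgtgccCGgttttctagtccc
Tbxt: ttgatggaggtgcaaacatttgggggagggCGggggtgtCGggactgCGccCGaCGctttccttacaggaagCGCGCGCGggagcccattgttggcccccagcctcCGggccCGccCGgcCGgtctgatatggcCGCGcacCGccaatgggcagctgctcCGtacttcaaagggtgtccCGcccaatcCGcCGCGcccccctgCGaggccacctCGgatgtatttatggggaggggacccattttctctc

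These 6 windows held between 19 (Foxd2) and 29 (Foxc1) CG dinucleotides, whereas the median of 21842 RefSeq promoter windows of the same length was 8. The matched windows that were not printed held 30 (Sox13) and only 4 (Tbx19), the latter below that median. The median was 14 in the 77 windows of the 6 families, 21 in the 24 windows of genes with a CG region and 11 in the 53 windows of genes without one. Searched on both strands, the GC box GGGCGGGG occurred in the windows of Foxf2, Foxc1, Foxd2 and Tbxt. It was present in 18.8% of all windows, in 41.7% of those of genes with a CG region (10 of 24) and in 9.43% of those without (5 of 53). The families' own core motifs were rare: the forkhead core TGTTTAC was found in 2 of 77 windows, the Sox motif ACAATGG in 1 (Tbxt), the T-box motif AGGTGTGA in 1, the Klf box CCACACCC in 2 and the Gata motif AGATAA in 2. As shares of the 77 windows these were 2.6%, 1.3%, 1.3%, 2.6% and 2.6%, and in all windows 2.98%, 2.63%, 0.939%, 2.86% and 9.17%. The forkhead, T-box and Klf letters were thus about as frequent as in all windows. The median GC content was 62% in the 77 windows and 54% in all windows, and the shares were not adjusted for it. The GC box contains a CG itself, so its frequency and the CG count are not independent.

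The 105 regions comprised 54 in the CG context, 33 in CHG and 18 in CHH, where H is any base other than G. The CG regions of these genes were almost all hypermethylated in CUMS, 52 of 54 (96.3%), against 80% of all annotated CG regions. They lay mainly in CpG islands, 46 of 54 (85.2%), against 52.7% of all CG regions. Every one of the 46 island regions was hypermethylated, as were 97% of all annotated island CG regions, so within islands the direction was that of islands in general. Outside islands 6 of 8 were hypermethylated (75%), against 61.1% of all such regions. In CHG, 25 of 33 member regions were hypermethylated (75.8%; 68.6% of all CHG regions), and in CHH 12 of 18 (66.7%; 78.5% of all annotated CHH regions). Over the contexts together, 89 regions were hypermethylated and 16 hypomethylated.

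**Figure D1:**
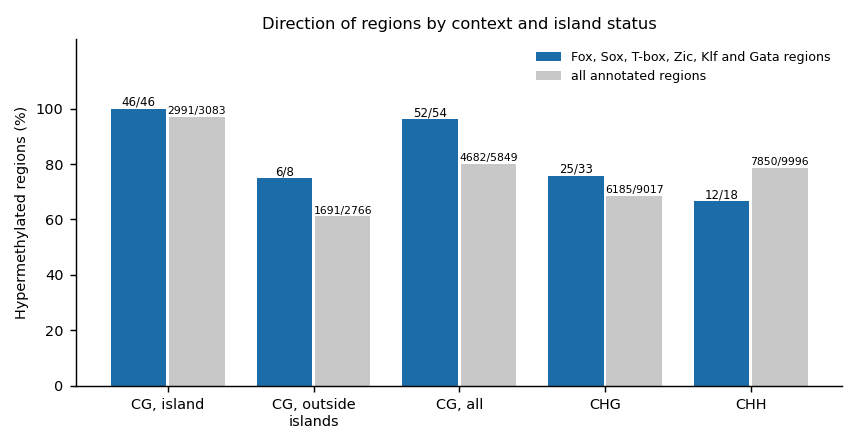
Share of regions with a higher level in CUMS than in Ctrl (y axis, percent), by cytosine context and CpG island status; blue bars are the Fox, Sox, T-box, Zic, Klf and Gata regions, grey bars all annotated regions, and the numbers over the bars are hypermethylated regions over all regions. The blue bar is above the grey one for CG as a whole (52 of 54) and below it for CHH (12 of 18).

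Of the 108 protein-coding RefSeq genes of these families, 54 had at least 1 region (50%), against 25.9% of all 23148 protein-coding RefSeq genes. For CG regions the counts were 40 of 108 (37%) and 12.9%. Genes were matched by symbol, so a gene that the annotation names otherwise counted as having no region. This can lower the shares over all genes to an unknown extent. The Fox family gave the most regions, 49 in 22 of its 45 genes, with 43 hypermethylated and 6 hypomethylated. Sox genes had 20 regions in 7 of 19 genes (14 and 6), T-box genes 14 in 9 of 16 (13 and 1), Klf genes 13 in 9 of 17 (10 and 3), Zic genes 5 in 3 of 5 (5 and 0) and Gata genes 4 in 4 of 6 (4 and 0). Many well-known members had none: Sox2, which maintains neural stem cells, the endothelial genes Sox7, Sox17, Sox18, Foxc2 and Foxq1, and Eomes, Tbx5, Klf15, Gata1 and Gata6. Between genes, 28 had regions in the CG context alone, 14 in CHG or CHH alone and 12 in both, and 28 genes had a single region.

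In islands the Ctrl levels of the member CG regions lay between 3.81% and 9.18% (median 5.85%) and the CUMS levels between 10.3% and 32.6% (median 15.98%). The 2 ranges did not overlap, since the lowest CUMS level was above the highest Ctrl level. The difference ranged from 5.38 to 24.9 percentage points (median 9.74), and the CUMS level was at least 2-fold the Ctrl level in 44 of 46 regions (median 2.70-fold). The 2945 hypermethylated island regions of other genes or of no gene had medians of 18.0% in CUMS, 6.29% in Ctrl and 11.5 percentage points for the difference, a median of 2.73-fold. The members thus sat somewhat below the middle of the island regions in level and difference and close to it in fold. Among those 2945 regions the ranges did overlap, with a lowest CUMS level of 6.61% and a highest Ctrl level of 90.8%. The members are far fewer, and a difference was a condition of entry, so their gap is no measure of how well the groups separate. Differences of at least 10 percentage points were found in 30 of the 54 member CG regions (55.6%, against 76.1% of all CG regions) and in 22 of the 46 island regions (60.7% of all island CG regions reached that size). For its final DMRs the paper names an absolute difference of at least 10% together with a p-value cut-off. The list used here also holds smaller differences, among them 24 of the 54 member CG regions. Over all contexts, 36 of the 105 member regions reached 10 percentage points, and 30 of these were CG regions. Most member CHG and CHH regions were thus below that size. The Hox genes, which pattern the body axis and also lie in islands, had 8 CG island regions, all hypermethylated, with medians of 18.5% in CUMS and 6.997% in Ctrl.

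**Figure D2:**
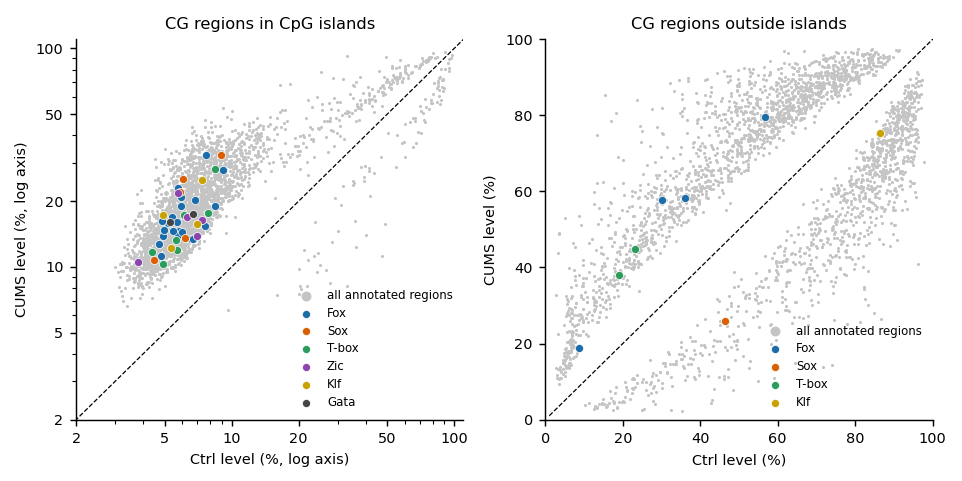
CUMS level against Ctrl level (percent) of CG regions in CpG islands (left, both axes logarithmic) and outside islands (right, linear axes); each coloured point is a member region by family, grey points are all annotated CG regions, and the dashed line marks equal levels. The 46 island members sit above the line at Ctrl levels under 10%, and the Sox5 intron and Klf16 exon regions are the 2 below it outside islands.

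Between families, the median difference of the hypermethylated island CG regions was 16.04 percentage points in Sox (5 regions), 10.8 in Gata (2), 10.5 in Klf (4), 9.76 in Fox (23), 9.01 in Zic (5) and 7.70 in T-box (7). The ranges of the families overlapped: Sox spanned 6.25 to 23.7, Fox 6.38 to 24.9 and T-box 5.38 to 19.8 percentage points. By annotation, 17 CG regions in 15 genes lay at the promoter of the member gene itself, all in islands and all hypermethylated, with a median difference of 10.8 percentage points. Of all annotated island CG regions 97% were hypermethylated. The 29 island regions of the members away from the own promoter had a median of 8.98. The ranges overlapped almost fully, from 6.25 to 23.7 percentage points at own promoters and from 5.38 to 24.9 elsewhere. Counting promoters of any gene, 21 of 54 member CG regions touched one (38.9%), against 25.6% of all CG regions.

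**Figure D3:**
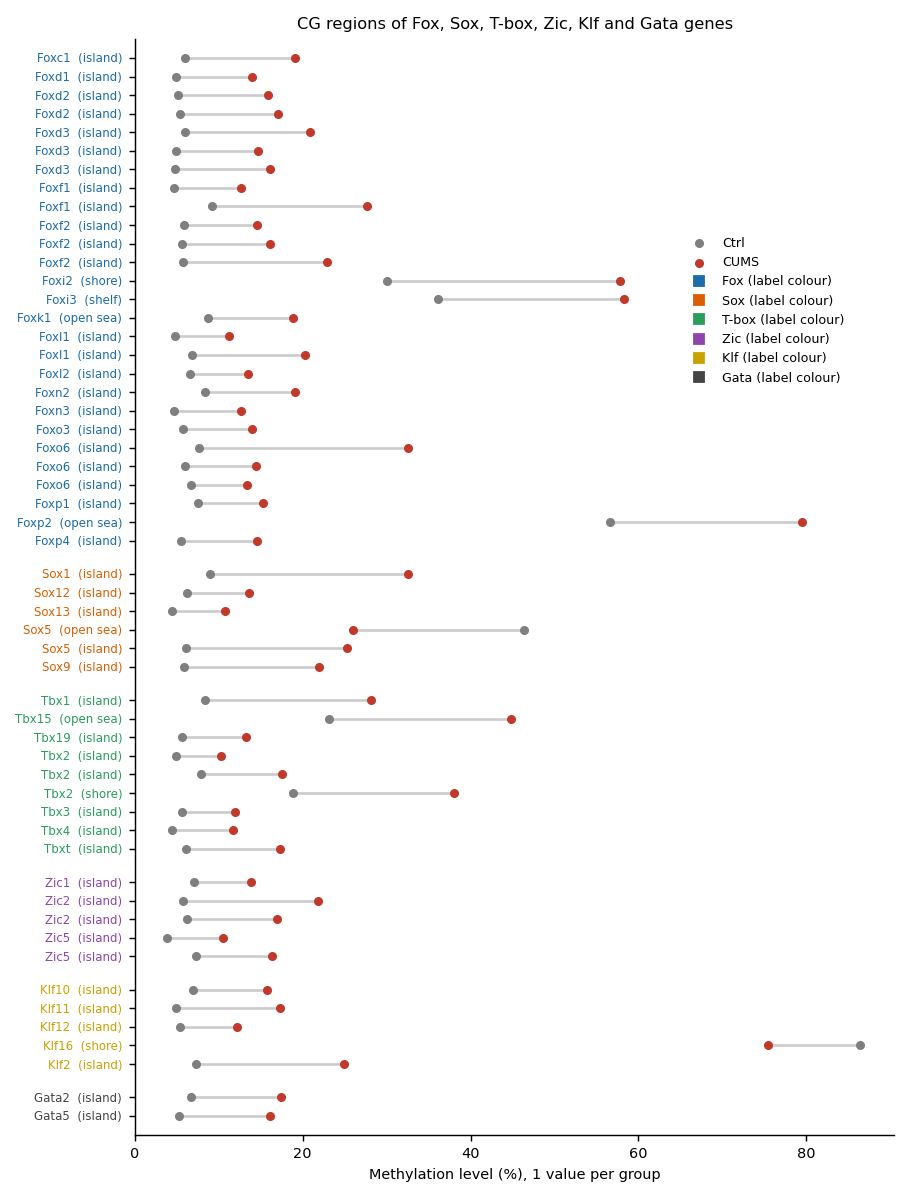
Methylation level (x axis, percent) of each of the 54 member CG regions, 1 row per region with gene and island class; grey points are Ctrl, red points CUMS, 1 value per group, and the label colour marks the family. Red lies to the right of grey in 52 rows, and the exceptions are the Sox5 open sea region and the Klf16 shore region.

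Among the forkhead genes, all 27 CG regions were hypermethylated, in 18 genes. The intron island of Foxo6, a FoxO factor of the brain, had the largest island difference of any member, 32.6% in CUMS and 7.66% in Ctrl (chr5:133871508-133871565, 13 cytosines). In a separate island at its 5' untranslated exon, Foxo6 had 2 further regions of 14.5% against 5.95% and 13.4% against 6.71%. Both regions of Foxf1, required for vascular and lung mesenchyme, lay in 1 island: 27.7% against 9.18% in its exon (chr19:49153892-49154071) and 12.7% against 4.71% at its promoter. The same 2 regions were also annotated to the promoter of the long noncoding RNA Fendrr, so they cannot be assigned to 1 of the 2 genes. Foxl1, a factor of gut mesenchyme whose regions begin 43.9 kb further along, had 20.3% against 6.81% and 11.2% against 4.81% in its exon.

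Foxf2, a regulator of brain pericytes and of the blood-brain barrier, had 3 CG regions inside 1 island of 1679 bp. Its promoter regions stood at 22.9% against 5.74% (chr17:32842570-32842763, 30 cytosines) and 16.1% against 5.66%, and its exon region at 14.5% against 5.82%. Foxc1, whose promoter region lies 207 kb from those of Foxf2 on the same chromosome, had 19.1% in CUMS and 5.94% in Ctrl (chr17:32634834-32634923, 34 cytosines). Foxd3, a factor of the neural crest, likewise had 3 regions in 1 island, 20.9% against 5.95% at the promoter (chr5:114334940-114335266, 74 cytosines) and 16.1% against 4.84% and 14.7% against 4.96% in its exon. The promoter and exon of Foxd2 stood at 17.0% against 5.38% and 15.8% against 5.15%, and Foxd1, a factor of kidney stroma, at 13.9% against 4.93%. These neighbouring regions share an island and are not independent of each other.

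Among the other forkhead genes with island regions, Foxn2 had 19.05% against 8.38% at its promoter, Foxo3, a factor of stress resistance, 13.9% against 5.71% at its promoter, and Foxp1, a repressor active in endothelium, 15.3% against 7.55% in an intron. Foxp4 had 14.5% against 5.46%, Foxn3 12.7% against 4.71%, and Foxl2, a factor of ovarian granulosa cells, 13.5% against 6.58%. The forkhead regions outside islands had higher levels in both groups. In exons, Foxi2 stood at 57.7% against 30.1% (shore, chr1:190224299-190224414) and Foxi3, a factor of cranial ectoderm, at 58.3% against 36.1% (shelf). An intron of Foxp2, known for its role in speech and language, stood at 79.5% against 56.6% (chr4:43303441-43303538, in a repeat), and an intron of Foxk1 at 18.8% against 8.76%. A shore is the flank of an island, a shelf lies beyond it, and open sea is everything further out.

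In the Sox family, the promoter of Sox1, a marker of neural progenitors, stood at 32.6% in CUMS and 8.93% in Ctrl (chr16:77139363-77139563, 54 cytosines). Sox9, which drives cartilage and astroglial fates, had 21.9% against 5.88% across an exon and intron (chr10:97808129-97808377). Sox12 (13.6% against 6.16%) and Sox13 (10.7% against 4.47%, at the promoter) were lower. Sox5, a factor of cartilage and of cortical projection neurons, held CG regions of both directions. Its promoter island stood at 25.2% in CUMS against 6.06% in Ctrl (chr4:177736976-177737143, 43 cytosines). An open sea intron stood the other way, at 26.0% in CUMS against 46.4% in Ctrl (chr4:177229384-177229465, 12 cytosines).

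Sox5 also had the most regions of any member, 12, spread over 877 kb, of which 7 were hypermethylated and 5 hypomethylated. Its 4 CHG regions had differences of 4.95, 5.07, 3.24 and -3.62 percentage points. Among its 6 CHH regions, the one farthest from the promoter stood at 0.216% in CUMS against 15.7% in Ctrl (chr4:176859941-176860255, 156 cytosines). The others stood at 5.86% against 0.0731%, 0.415% against 9.40%, 7.03% against 0.373%, 7.77% against 1.01% and 0.411% against 9.91%. The directions were interspersed along the gene. In the authors' full list, which kept many more CHH regions than the annotated one, a further 46 hypermethylated and 23 hypomethylated CHH regions lay within this span (66.7% hypermethylated), close to the 64.6% of all 145823 CHH regions of that list. Over the 26 genes that span 2 regions or more the count was 93 and 51 (64.6%), and without Sox5 62.7%.

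**Figure D4:**
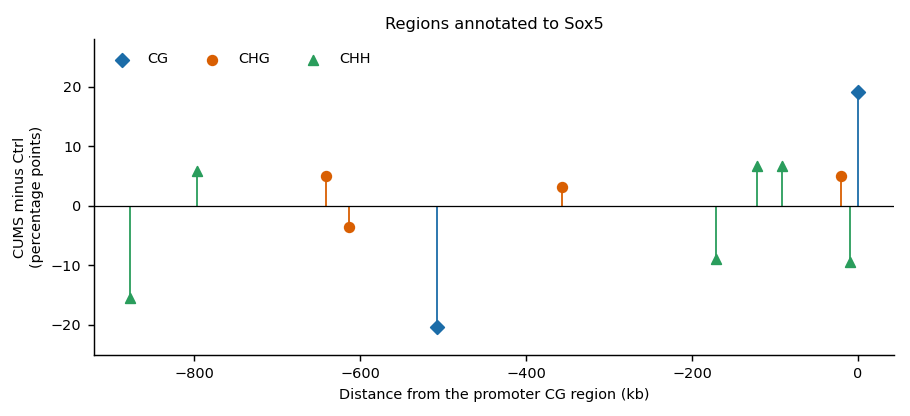
Difference in methylation level, CUMS minus Ctrl in percentage points (y axis), of the 12 regions annotated to Sox5, against their distance in kb from the start of its promoter CG region (x axis; negative values lie at lower coordinates); the marker gives the cytosine context. The 7 regions above 0 and the 5 below it are interspersed, with the CG promoter region at 0 kb above and the CG intron region below.

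T-box genes had 9 CG regions, all hypermethylated. Tbx1, a regulator of pharyngeal and cardiovascular development, had 28.2% against 8.41% across an exon and intron (chr11:82417307-82417534, 48 cytosines). Tbx2 and Tbx4, whose nearest regions lie 43.1 kb apart, are factors of heart, limb and lung. Tbx2 had 38.04% against 18.9% in a shore (chr10:70687499-70687909, 62 cytosines), 17.6% against 7.85% and 10.3% against 4.92% in 2 islands, and Tbx4 11.7% against 4.38%. The promoter of Tbxt (Brachyury), which specifies mesoderm, stood at 17.3% against 6.13% (chr1:52306049-52306233). Tbx15, a factor of skeletal development, had 44.8% against 23.1% in an open sea intron. The promoter regions of Tbx19, which activates the Pomc gene in the pituitary, and of Tbx3 stood at 13.3% against 5.59% and 12.0% against 5.67%. The Tbx19 region also belonged to the promoter of Sft2d2.

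Zic genes, which act in neural tube and cerebellum, had 5 CG regions, all in islands and all hypermethylated. The Zic2 promoter carried 2 of them, 21.8% against 5.75% (chr15:99576070-99576264, 43 cytosines) and 16.9% against 6.27%. Zic5, whose nearest region lies 9.67 kb from those of Zic2, had 16.3% against 7.32% at its 5' end and 10.5% against 3.81% in an exon. Zic1 had 13.9% against 6.99%. No Zic gene had a CHG or CHH region in the annotated list, and in the full list a CHH region of 8.45% against 0.578% overlapped the first Zic2 promoter region.

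Among the Klf genes, Klf2, the flow-responsive factor of endothelium, had the longest member CG island region, 437 bp with 108 cytosines in its exon, at 24.96% in CUMS and 7.32% in Ctrl (chr16:17522765-17523201). Klf11 and Klf10, both induced by TGF-beta, had intron island levels of 17.2% against 4.92% and 15.7% against 6.99%. Klf12, a repressor, had 12.1% against 5.35%. The exon of Klf16, in a shore, was hypomethylated from a high level, with 75.5% in CUMS and 86.4% in Ctrl (chr7:9146344-9146446, 21 cytosines). Of the Gata genes, Gata2 had 17.4% against 6.71% at its 5' end (chr4:120659409-120659536) and Gata5, a factor of heart and gut, 16.1% against 5.28% at its promoter (chr3:167426805-167426913). The regions of Klf10, Klf12 and Gata2 also touched promoters of genes without a symbol, and that of Gata5 an intron of another gene model.

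The islands that held member CG regions were long. There were 36 of them, with a median of 1781 bp, against 919.5 bp for the 2564 other islands with a CG region. In 8 of the 36 (22.2%) there were 2 or more CG regions, against 383 of the others (14.9%). The called regions covered a median of 9.08% of a member island and 16.6% of another. The level in the remainder of these islands is not given by the tables.

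The CHG and CHH regions of the members lay mostly in introns outside islands. Of 51, 45 lay in introns alone of the member gene, and 44 when every gene model was counted, where 80.5% of all CHG and CHH regions annotated to a gene did so. In islands there were 3 of 51, against 1.99% of all CHG and CHH regions. A repeat held 19 of the 51 and 1 of the 54 CG regions, where the shares over all regions annotated to a gene were 42.7% in CHG and CHH and 13.2% in CG. In 50 of the 51, the group with the lower level stood under 1%, and the exception was a Sox5 CHH region. The level of the higher group reached at least 10% in 7. CHG regions were small, with medians of 3.65% in CUMS among the 25 hypermethylated and 3.98% in Ctrl among the 8 hypomethylated. The CHH medians were 7.35% in CUMS for 12 regions and 10.0% in Ctrl for 6. For all regions outside these families, with or without a gene, the corresponding medians were 4.23% and 4.06% in CHG and 8.29% and 5.98% in CHH.

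**Figure D5:**
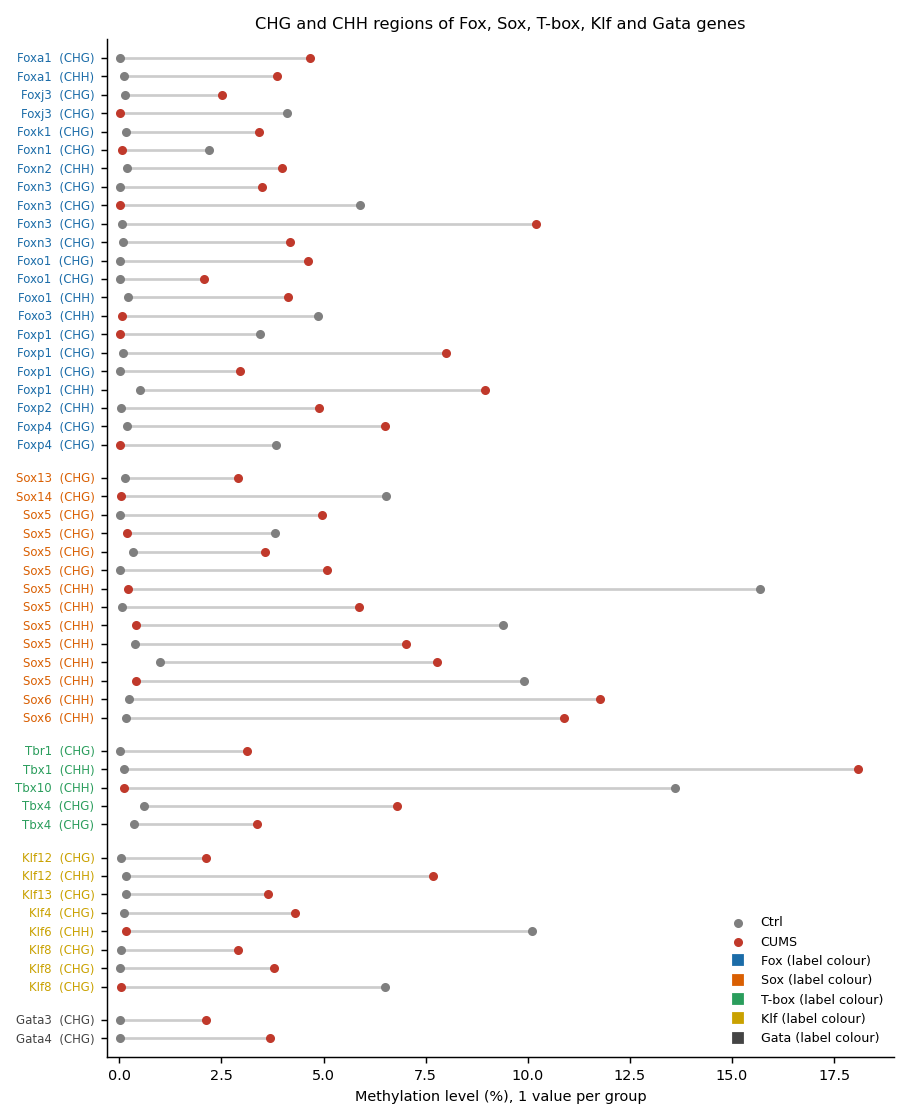
Methylation level (x axis, percent) of each of the 51 member CHG and CHH regions, 1 row per region with gene and context; grey points are Ctrl, red points CUMS, 1 value per group, and the label colour marks the family. In each row 1 group lies near 0; red is the higher in 37 rows and grey in 14.

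The largest of these lay at the promoter of Tbx1, in a repeat, with CHH levels of 18.1% in CUMS against 0.125% in Ctrl (chr11:82407418-82407714, 165 cytosines). Tbx10 stood the other way, 0.126% against 13.6%, in a region it shared with Acy3. Both CHH regions of Sox6, the partner of Sox5 in cartilage, were hypermethylated, 11.8% against 0.243% and 10.9% against 0.163%. In introns, Foxn3 CHG stood at 10.2% against 0.0547% and Foxp1 CHH at 8.96% against 0.505%. Klf6, an injury-responsive factor, had 0.156% against 10.1%, and Klf12 CHH 7.68% against 0.157%. Gata4 and Gata3, factors of heart and of lymphoid and sympathetic cells, had CHG levels of 3.69% against 0.0167% and 2.11% against 0.0197%. At the promoter of Sox14, an interneuron factor, CHG was 0.0320% against 6.54%. Foxa1, a pioneer factor of endoderm, had 4.67% against 0.0118% in CHG and 3.85% against 0.127% in CHH. Foxj3 had 1 CHG region in each direction, 2.52% against 0.141% and 0.0135% against 4.12%. Foxn1, a factor of thymic epithelium, had 0.0649% against 2.18%, and the promoter of Klf13 3.65% against 0.169%.

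Besides Sox5, Foxn3, Foxp1 and Klf8, each with the most or joint most regions of its family, held both directions in these contexts. Foxn3 had 4 CHG regions, of which 3 were hypermethylated (10.2, 4.18 and 3.50% in CUMS) and 1 hypomethylated (5.90% in Ctrl). Foxp1 had 3 hypermethylated CHG or CHH regions and 1 hypomethylated CHG region (3.43% in Ctrl). Klf8, on the X chromosome, had 2 hypermethylated CHG regions of 3.78% and 2.92% in CUMS and 1 hypomethylated of 6.49% in Ctrl. In Klf12 and Tbx4, which also had 3 regions each, all 3 were hypermethylated. In all, 7 genes had regions of both directions, and 5 had hypomethylated regions alone (Foxn1, Klf16, Klf6, Sox14 and Tbx10).

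Where member regions of different contexts overlapped, their directions were mostly shared. Both CHG regions that overlapped an annotated CHH region (Foxa1 and Foxo1) had the same direction in CHH, and so did all 21 CHG regions that overlapped a CHH region of the full list. The CG region of Tbx4 overlapped a CHG region of 3.38% against 0.356%, also hypermethylated. Of 5 CG regions that overlapped a CHH region of the full list, 4 had its direction and 1, in Sox5, did not. Overlapping contexts are read from the same DNA fragments and are not independent measurements.

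Grouped by role, 13 of 21 members listed for endothelial or vascular development had a region, against 54 of all 108 family genes (50%). Of their 24 regions, 21 were hypermethylated and 3 hypomethylated. Their 13 CG regions, in 10 genes, were all hypermethylated with a median of 10.5 percentage points. Of all annotated CG regions 80% were hypermethylated, and of those in islands 97%. Of the 11 CHG and CHH regions of these members 8 were hypermethylated, against 68.6% of all CHG and 78.5% of all annotated CHH regions. The 3 hypomethylated regions were those of Klf6 (CHH, given above), of Foxo3 (CHH, 0.0551% against 4.87%) and of Foxp1 (CHG, 0.0150% against 3.43%). The genes with CG regions were Foxc1, Foxf1, Foxf2, Foxl2, Foxo3, Foxp1, Klf2, Gata2, Tbx1 and Tbx3. These counts also depend on how the list was drawn, since it includes Foxl2, described above as a factor of ovarian granulosa cells. Foxo1, which restrains endothelial growth, Klf4 and Klf6 had CHG or CHH regions only. Of the Foxo1 regions, all 3 were hypermethylated, with CHG levels of 4.63% against 0.0154% and 2.07% against 0.00957% and a CHH level of 4.14% against 0.203%. Klf4 CHG stood at 4.31% against 0.123%. Of 18 members listed as neural, 8 had a region, and all 13 of their regions were hypermethylated, 10 of them CG. Tbr1, a factor of cortical neurons, was among them with a CHG region of 3.13% against 0.0150%. The neural list left out Sox14, whose only region was hypomethylated, and Sox5 was placed under endoderm or mesoderm, while Gata3 was counted as neural. The absence of a hypomethylated region among the neural members thus depends on how the list was drawn. Of 18 listed for endoderm or mesoderm, 9 had a region, with 19 regions hypermethylated and 5 hypomethylated, and those 5 were all in Sox5. In CG, 1 region of these lists, the Sox5 intron, was hypomethylated. The neural and the endoderm or mesoderm lists had 8 and 9 of 18 genes beside 54 of 108 in the families as a whole, and in CG 52 of the 54 member regions were hypermethylated.

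Factors related to these families but outside them were read in the same way. Of 41 such genes (Sp, Gli, Glis and Tcf/Lef factors, Gata partners and endothelial factors), 20 had a region, against 25.9% of all protein-coding genes. In all, 30 regions were hypermethylated and 10 hypomethylated. Of their 22 CHG and CHH regions 14 were hypermethylated, against 68.6% of all CHG and 78.5% of all annotated CHH regions. Of their 18 CG regions, 16 were hypermethylated, against 80% of all CG regions and 97% of those in islands. The median difference over the 18 was 15.3 percentage points, against 11.9 over all CG regions. Hhex, an early endothelial factor, had 21.7% against 6.40% at its promoter, and Hey1, a Notch target of arteries, 21.3% against 7.91%. The exceptions were an open sea intron of Epas1, the hypoxia factor, at 4.85% in CUMS and 17.5% in Ctrl, and an island exon of Zfpm1, a Gata partner, at 28.4% and 41.5%. Erg, Fli1, Tal1 and Prox1 had no region.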

How the data were processed

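DNA methylation was compared between 3 CUMS and 3 Ctrl samples, grouped by title. The authors treated DNA with TET2 and APOBEC3A, so that unmethylated cytosine reads as thymine and incomplete conversion raises a level. Per the submitters' processing notes, FastQC 0.11.3, fastp 0.20.0, Bismark 0.16.3 and Bowtie2 were used on mRatBN7.2 (rn7), and the methods name DSS for the DMR call. The authors deposited 1 methylation level per group and region as a fraction, shown here in percent. No coverage, p-value or per-sample value was used here, so the depth per region is unknown (the methods state coverage only as a range over samples) and the planned permutation test over samples was not run. The deposited difference and region score, the authors' own comparison, were not used. The difference was computed as CUMS minus Ctrl with pandas 2.3.3 in Python 3.11.15. Counting and matching were tested on simulated tables. A region took the first of island, shore, shelf and open sea that the annotation gave. Cytosine numbers are those of the table.

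The annotated list keeps all CG and CHG regions but only the CHH regions with the strongest score, so CHH shares differ from the full list. Members and gene lists were chosen with earlier results of these data known, and support nothing by themselves. Genes were named by rule: per family, the 3 hypermethylated CG regions with the largest difference, hypomethylated CG regions, the gene with most regions and the 2 largest CHG or CHH differences, with endothelial and neural list genes. Other members were named after their values were seen. RefSeq tables (GRCr8) served for gene counts and promoter sequence, never for positions of regions.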

Additional observations from a re-analysis of the deposited data

How the results depend on the processing

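Across 27 alternatives for 9 results, 17 values stayed within the main value's 95% binomial interval or within 1.5 times of the main count or median, and 10 moved. That interval treats regions as independent, which they are not, so it served only as a fixed limit for sorting values and measures no uncertainty between samples. The share of hypermethylated regions, 84.8% over all contexts, was 96.3% in CG only, 75.8% in CHG only and 66.7% in CHH only. It stayed between 82.6% and 90.4% under the other settings, including the omission of Sox5 (88.2%), which was chosen after seeing the data. When regions under 10 percentage points were dropped, family counts were 16 Fox, 7 Sox, 6 T-box, 2 Zic, 3 Klf and 2 Gata regions, by construction fewer. Joining regions within 1 kb left 3 Zic regions. The share of CG regions in islands was 73.3% at 10 percentage points or more. No paired analysis was possible because each region has 1 value per group, and for the same reason no replicate could be left out. The coverage of single regions, which would set their precision, was not used here.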
